A study of Mus musculus with 2 samples.

Results

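Gstm1, Adh7, Prdx1 and Ftl1 encode 4 proteins that deal with reactive chemicals, peroxides or iron, and were taken by symbol from the cluster tables of 2 mouse tongue sections. All 4 genes were found in both tables, among 865 genes listed for the WT section and 298 listed for the H3K36M section (879 different genes in all). The sections were profiled by spatial transcriptomics, in which each transcript molecule is counted by its unique molecular identifier (UMI) at a barcoded spot under the tissue. The WT group was 1 section of genotype Krt14-Cre(-); LSL-H3K36M, and the H3K36M group was 1 section of genotype Krt14-Cre(+); LSL-H3K36M. Both carried the LSL-H3K36M transgene and both had been given 4NQO, a carcinogen that produces lesions of the oral epithelium. Cre under the Krt14 promoter removes the stop cassette in cells of the keratin-14 lineage, so only those cells of the Cre-positive tongue can make the mutant histone, and a spot also holds cells that cannot. Neither mouse age nor 4NQO dose is stated in the labels. With 1 section per genotype there was no spread between animals to test against, so no p-value is given, and 95% intervals in parentheses cover counting error only.

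Glutathione S-transferases such as the product of Gstm1 attach glutathione to electrophilic compounds, which makes them less reactive and easier to export. Adh7 encodes a class IV alcohol dehydrogenase of upper digestive epithelia that oxidises ethanol and retinol, an early step on the way to retinoic acid. Prdx1 encodes a cytosolic peroxiredoxin that reduces hydrogen peroxide and is itself restored by thioredoxin. Ftl1 encodes the light chain of ferritin, the shell in which cells store iron, while the heavy chain from Fth1 carries the ferroxidase site. Glutathione transferase, peroxiredoxin and ferritin genes include targets of NRF2 (Nfe2l2), the transcription factor that answers electrophiles and oxidants in keratinocytes.

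The genes lie at 4 separate places in the genome. On GRCm38 with the GENCODE annotation, Gstm1 spans chromosome 3 from 108012255 to 108017973 on the minus strand, within a row of Gstm genes, and Adh7 spans chromosome 3 from 138217760 to 138233382 on the plus strand, beside other Adh genes. Prdx1 spans chromosome 4 from 116685544 to 116700822 on the plus strand, and Ftl1 spans chromosome 7 from 45457944 to 45459884 on the minus strand. Promoters are shown for Prdx1 and Adh7, since these were the members with a searched motif among the 250 bases before the start in RefSeq's GRCm38.p6 table, and are printed up to the base before the GENCODE start. The motifs were TGACNNNGC, the core of the antioxidant response element bound by NRF2, and TGANTCA, the AP-1 core, both searched on both strands, and capitals mark the matches.
Prdx1 promoter, chr4:116685349-116685543, plus strand: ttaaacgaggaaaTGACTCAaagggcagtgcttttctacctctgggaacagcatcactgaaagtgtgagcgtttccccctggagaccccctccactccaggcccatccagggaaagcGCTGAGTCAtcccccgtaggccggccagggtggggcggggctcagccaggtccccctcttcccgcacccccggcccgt
Adh7 promoter, chr3:138217523-138217759, plus strand: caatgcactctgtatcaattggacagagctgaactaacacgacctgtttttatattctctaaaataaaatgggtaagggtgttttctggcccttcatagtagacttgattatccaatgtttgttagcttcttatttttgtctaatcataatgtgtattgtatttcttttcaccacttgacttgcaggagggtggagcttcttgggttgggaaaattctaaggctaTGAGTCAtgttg
In Prdx1 the match to TGACNNNGC began 133 bases before the RefSeq start, on the minus strand, and overlapped 1 of its 2 matches to TGANTCA. The Adh7 match to TGANTCA began 25 bases before it. No match to either motif was found in these windows for Gstm1, which has 2 annotated starts, or for Ftl1. Of 32851 promoter windows of this length, 10.2% held TGACNNNGC and 6.75% held TGANTCA, so a match describes the letters and is not evidence of binding.

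Ferritin RNAs also carry an iron-responsive element in the 5′ untranslated region, a hairpin through which iron controls how much protein is made from the RNA. It is shown for both chains because the balance of the chains is described below. The pattern searched was CAGTGN, the letters of the loop, with C as the 6th base before it, the bulge. The 30 bases around the match read as follows in the GENCODE transcripts, with the match in capitals.
Ftl1 (transcript base 78 onward, chromosome 7): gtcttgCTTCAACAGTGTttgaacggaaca
Fth1 (transcript base 87 onward, chromosome 19): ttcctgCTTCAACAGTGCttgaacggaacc
The pair agreed at 26 of 30 bases. The pattern is loose, with a match in an annotated 5′ untranslated region of 12.4% of 20995 genes. UMI counts measure the RNA and say nothing of this control.

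The clusters of spots were those deposited by the authors, 3 for WT and 4 for H3K36M. Each section has its own clusters, so the same number in both does not mean the same region. UMI counts were worked back from the deposited cluster averages, and a rate here is the number of UMIs from the gene in every 10000 of the cluster. WT clusters 1 to 3 summed to 856199, 1354340 and 72775 UMIs. H3K36M clusters 1 to 4 summed to 17291, 306551, 193928 and 53037 UMIs. H3K36M cluster 1 and WT cluster 3 were therefore thinly sampled. Genes whose average stayed under 1 in every cluster were not listed. This limit equals a rate of 1.99 for WT and 7.24 for H3K36M. In the WT table all 4 members passed it in every cluster. In the H3K36M table Gstm1 and Adh7 passed it in cluster 2 alone, Prdx1 in clusters 2 and 3, and Ftl1 in clusters 1 and 4, so the listing rule itself required Gstm1 and Adh7 to be highest in cluster 2. By the same rule Prdx1 had to be highest in cluster 2 or 3 of that section, and Ftl1 in cluster 1 or 4. Markers set the clusters apart. The summed markers of differentiated squamous epithelium (15 of 17 listed in the WT table, 13 of 17 in the H3K36M table) took 10.1%, 6.07% and 8.32% of UMIs in WT clusters 1 to 3, and 3.12%, 5.66%, 9.45% and 1.58% in H3K36M clusters 1 to 4. Skeletal muscle markers (12 and 10 of 15 listed) were highest in WT cluster 3 at 0.638% and in H3K36M cluster 1 at 1.53%. In spots, fewer cells of a type and less RNA per cell cannot be told apart.

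All 4 genes were highest in cluster 2 of the WT section, by 1.71-fold to 3.90-fold over the rest of that section. From cluster 1 to cluster 3, Gstm1 had rates of 3.29 UMIs per 10000 (2.92 to 3.70), 7.49 (7.04 to 7.97) and 3.02 (1.89 to 4.58). It was thus high in cluster 2, with clusters 1 and 3 not told apart at this depth. The ratio of cluster 2 to the other clusters was 2.29 (2.01 to 2.61) for this conjugating enzyme. Adh7 had 4.29 (3.86 to 4.75), 8.16 (7.68 to 8.65) and 4.67 (3.24 to 6.53), and a ratio of 1.89 (1.68 to 2.12) in cluster 2. The interval of cluster 2 again lay above both others, which overlapped. Prdx1 had 9.40 (8.76 to 10.1), 16.2 (15.5 to 16.9) and 10.4 (8.23 to 13.1), with a ratio of 1.71 (1.58 to 1.85). Ftl1 differed most, at 2.70 (2.36 to 3.07), 10.8 (10.2 to 11.4) and 3.57 (2.33 to 5.23), with a ratio of 3.90 (3.42 to 4.47) that ranked second of 865 listed genes. Cluster 2 held 85.0% of the section's Ftl1 UMIs against 59.3% of all its UMIs. At least 2-fold higher in cluster 2 were Gstm1 and Ftl1, 2 of 4 members, where 6.71% of all listed genes were. The median log2 ratio of the members in cluster 2 was 1.06, beside 0.17 over all 865 genes.

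**Figure D1:**
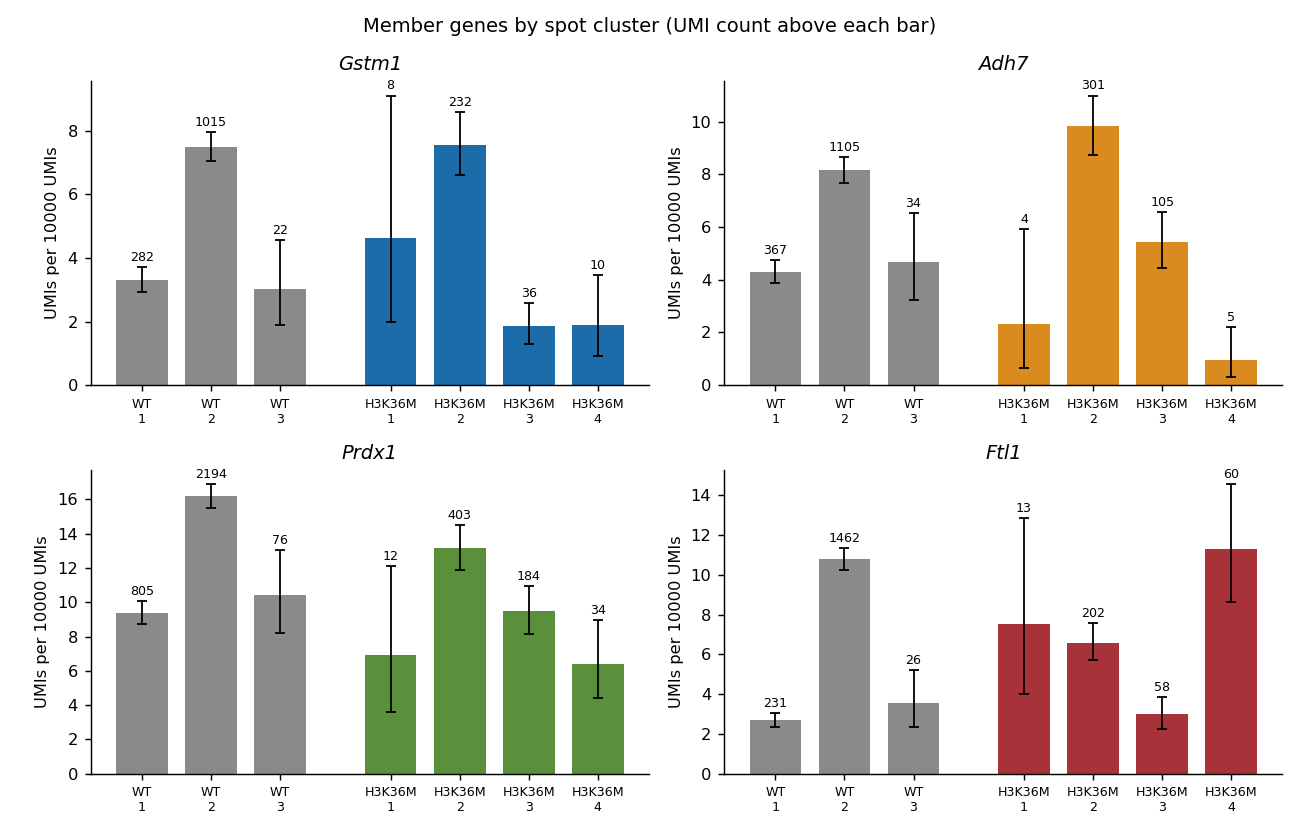
Rates of the 4 genes in each spot cluster, as UMIs per 10000 UMIs of the cluster, with WT clusters in grey and H3K36M clusters in colour. Bars start at 0, error bars are exact 95% Poisson intervals and the UMI count stands above each bar; all 4 genes peak in WT cluster 2, and Ftl1 alone of the 4 peaks in H3K36M cluster 4, at 11.3.

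In the H3K36M section Gstm1, Adh7 and Prdx1 were highest in cluster 2, but Ftl1 was highest in cluster 4. The listing rule required Gstm1 and Adh7 to be highest in cluster 2, and Ftl1 in cluster 1 or 4. H3K36M cluster 2 also had 6.09% of its UMIs from mitochondrially encoded genes, against 1.54%, 1.38% and 0.609% in clusters 1, 3 and 4. Its log2 ratios were 3.52 for S100a8 and 3.87 for S100a9, alarm protein genes of stressed keratinocytes and neutrophils. In WT cluster 2 these 2 genes were at -0.33 and -0.41, so the 2 clusters differ in other genes. Without mitochondrially encoded genes in the total, all 28 ratios of the members kept their sign, while the part of S100a8 and S100a9 in the result was not tested. Gstm1 had rates of 4.63 UMIs per 10000 (2.0 to 9.12), 7.57 (6.63 to 8.61), 1.86 (1.30 to 2.57) and 1.89 (0.904 to 3.47) in clusters 1 to 4. Clusters 3 and 4 were low and not told apart, while cluster 1, with 8 UMIs, could not be separated from cluster 2. Its ratio in cluster 2 was 3.70 (2.74 to 5.08). Of the 284 genes in both tables, 23 were at least 2-fold higher in WT cluster 2 and 25 in H3K36M cluster 2. Gstm1 was the 1 gene in both sets, and whether 1 shared gene is many or few was not tested. Txn1 (log2 ratios of 0.97 and 1.28) and Adh7 (0.92 and 1.19) fell just short in WT cluster 2. Adh7 spanned the widest range, with 2.31 (0.630 to 5.92), 9.82 (8.74 to 11.0), 5.41 (4.43 to 6.55) and 0.943 (0.306 to 2.20). Cluster 2 stood above cluster 3 by 1.81 (1.45 to 2.29) and above cluster 4, where 5 UMIs were counted, by 10.4 (4.41 to 32.3). Prdx1 was flatter, at 6.94 (3.59 to 12.1), 13.1 (11.9 to 14.5), 9.49 (8.17 to 11.0) and 6.41 (4.44 to 8.96). Its ratio in cluster 2 was 1.51 (1.28 to 1.78), and neither cluster 1 and cluster 3 nor cluster 1 and cluster 4 could be told apart. In cluster 2, 2 of 4 members were at least 2-fold higher, Gstm1 and Adh7, against 8.39% of the 298 listed genes, and the listing bears on both. The median log2 ratio of the members there was 0.89, beside 0.10 over all listed genes. Through Gstm1 and Adh7 the listing bears on this median too.

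Ftl1 parted from the other members in H3K36M cluster 4, though the listing rule required it to be highest in cluster 1 or 4. Its rates were 7.52 (4.00 to 12.9), 6.59 (5.71 to 7.56), 2.99 (2.27 to 3.87) and 11.3 (8.63 to 14.6) in clusters 1 to 4. Clusters 1, 2 and 4 stood above cluster 3, and cluster 4 stood above cluster 2, which had 0.582 times its rate (0.435 to 0.791). The 13 UMIs of cluster 1 left it inseparable from clusters 2 and 4. Against the rest of the section the ratio of cluster 4 was 2.15 (1.59 to 2.85) for Ftl1, where 15.4% of listed genes were at least 2-fold higher. The same ratio was 0.354 (0.168 to 0.660) for Gstm1, 0.119 (0.0385 to 0.280) for Adh7 and 0.554 (0.380 to 0.783) for Prdx1. At least 2-fold lower there were Gstm1 and Adh7, 2 of 4 members, where 27.5% of listed genes were. Ftl1 was also the 1 gene of 284 at least 2-fold higher both in WT cluster 2 and in H3K36M cluster 4. Past that fold were 23 genes in the first and 35 in the second. Whether 1 shared gene is many or few was not tested, and the listing of Ftl1 bears on it.

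**Figure D2:**
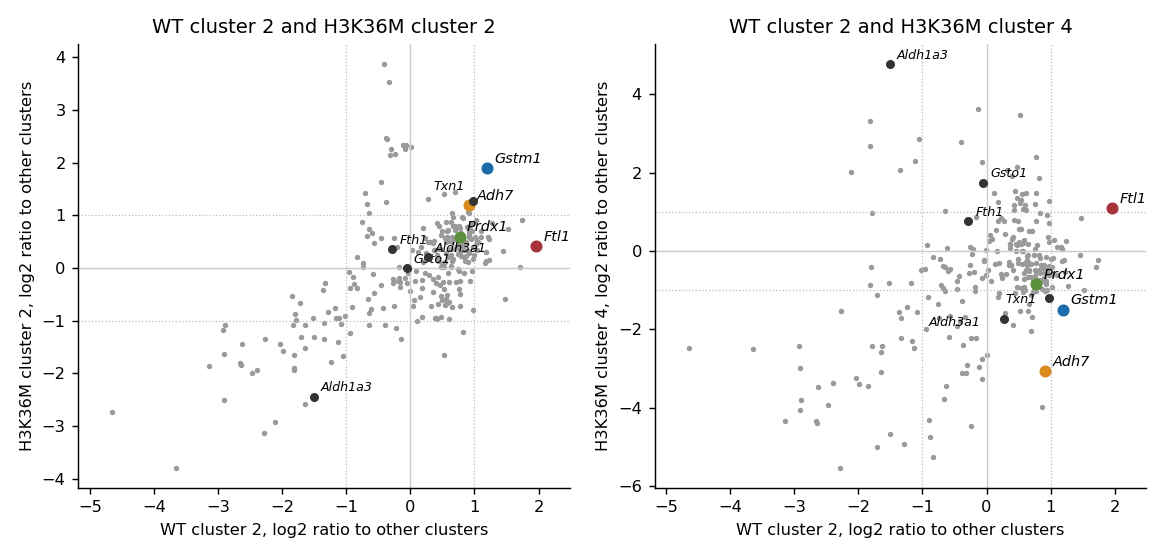
The 284 genes in both tables (grey points), by log2 ratio of rates to the other clusters in WT cluster 2 (horizontal axis) and in H3K36M cluster 2 (left) or cluster 4 (right), with dotted lines at 2-fold. The 4 members are coloured and 5 related genes black; Gstm1 lies past 2-fold on both axes on the left and Ftl1 on the right, where Adh7 falls to -3.07.

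The split of Ftl1 from the others did not depend on the total UMIs of a cluster. The listing of Ftl1 through H3K36M clusters 1 and 4 alone still bears on it. Of the UMIs of the 4 genes together, Ftl1 took 55.0% in H3K36M cluster 4 (45.2% to 64.6%, exact binomial, 60 of 109 UMIs), while clusters 2 and 3 had 17.8% (15.6% to 20.1%) and 15.1% (11.7% to 19.1%). In H3K36M cluster 1 the share was 35.1% (20.2% to 52.5%) of 37 UMIs, with an interval that overlapped that of cluster 4. Ftl1 shares in WT clusters 1 to 3 were 13.7% (12.1% to 15.4%), 25.3% (24.2% to 26.5%) and 16.5% (11.0% to 23.2%). Adh7 moved the other way within the H3K36M section, from 26.4% (23.9% to 29.1%) in cluster 2 and 27.4% (23.0% to 32.2%) in cluster 3 to 4.59% (1.51% to 10.4%) in cluster 4. Gstm1 took 20.4% (18.1% to 22.8%) in cluster 2 and 9.40% (6.67% to 12.8%) in cluster 3, a drop that Adh7 did not share. The WT clusters varied less, with Adh7 between 19.1% and 21.8%.

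**Figure D3:**
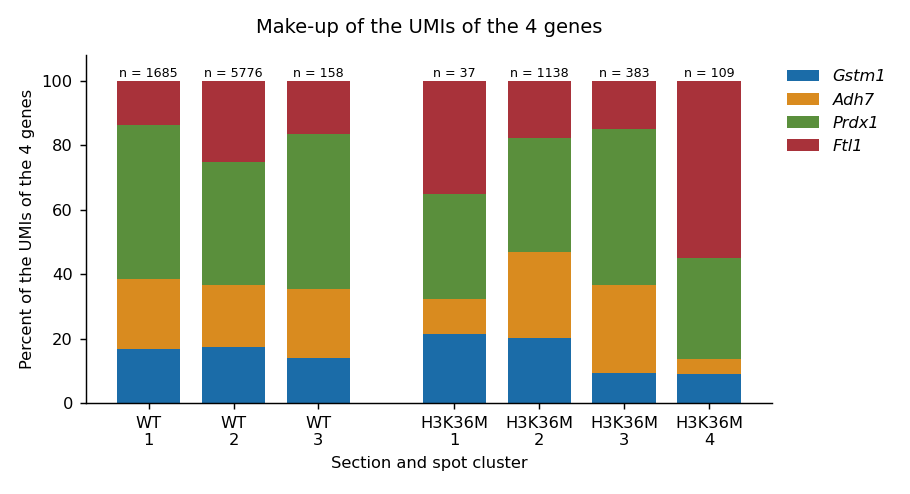
Make-up of the UMIs of the 4 genes in each cluster, as percent of their summed UMIs (n above each bar). Ftl1 makes up 55.0% in H3K36M cluster 4 and between 13.7% and 35.1% in the other 6 clusters.

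Markers of other states also differed between clusters, some in step with these values and others not. H3K36M cluster 4 had the highest summed markers of simple or ductal epithelium (3 of 9 listed, Krt7, Krt19 and Cldn4), at 0.322% of UMIs against 0.0166% to 0.0636% in clusters 1 to 3. Each of these 3 genes reached the listing limit in cluster 4 alone, so the listing rule required them to be highest there. In the WT table, Cldn4 was the 1 marker of that list present. Basal keratinocyte markers (7 of 8 listed) were highest in WT cluster 2, at 1.45% against 1.03% and 1.19%, and in the H3K36M section (3 of 8 listed) they were 1.45% in cluster 4 and 0.821% to 0.960% elsewhere. In H3K36M cluster 4 the ratio to the other clusters was 2.38 (2.17 to 2.61) for Krt14, 1.04 (0.861 to 1.25) for Krt5 and 0.759 (0.583 to 0.974) for Krt15, so Krt14 alone of the 3 was higher. Macrophages are rich in ferritin light chain, and 2 of 13 listed markers of macrophages and antigen presentation, Cd74 and H2-Ab1, were also highest in WT cluster 2. They summed to 0.05% of UMIs there, against 0.0244% in cluster 1 and 0.0234% in cluster 3. Both reached the listing limit in cluster 2 alone, so the listing rule required them to be highest there. None of the 13 was listed in the H3K36M table, nor was any marker of salivary secretory cells, neutrophils, erythroid cells, fibroblasts, endothelial cells or lymphocytes in either table. Stress keratinocyte markers (8 of 8 listed) took 9.08%, 6.66% and 6.36% of UMIs in WT clusters 1 to 3, and 0.908%, 2.32%, 2.72% and 1.56% in H3K36M clusters 1 to 4. Hair-type keratins (4 of 8 listed, WT table) took 0.165%, 0.00539% and 0.102% in WT clusters 1 to 3. The part of these cells in the values of the 4 genes was not tested.

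Ribosomal protein transcripts ranked the clusters of each section in the same order as Prdx1. Their share of UMIs was 9.09%, 16.5% and 12.3% in WT clusters 1 to 3 (81 genes), and 10.9%, 15.7%, 11.2% and 9.55% in H3K36M clusters 1 to 4 (75 genes). With these UMIs as the denominator, the log2 ratio of Prdx1 went from 0.77 to -0.05 in WT cluster 2 and from 0.59 to 0.06 in H3K36M cluster 2. Adh7 in WT cluster 2 went from 0.92 to 0.10, and from 1.19 to 0.65 in H3K36M cluster 2. Gstm1 went from 1.20 to 0.38 in WT cluster 2 and from 1.89 to 1.35 in H3K36M cluster 2. Ftl1 remained past 2-fold, with 1.15 in WT cluster 2 and 1.64 in H3K36M cluster 4. In H3K36M cluster 2, Ftl1 went from 0.41 to -0.12. Relative to ribosomal protein RNA, Prdx1 was therefore nearly level between cluster 2 and the rest in both sections, as was Ftl1 in H3K36M cluster 2 but not in WT cluster 2.

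The genes with the most similar profiles differed from member to member. Likeness was the root mean square difference in log2 rate, relative to the section, over all 7 clusters, among 283 other genes. Nearest to Prdx1 were the ribosomal protein genes Rpl37a at 0.09 and Rpl14 at 0.11 and the translation elongation factor gene Eef1b2 at 0.13, where the median gene stood at 0.65. Nearest to Adh7 were Fabp5, an epidermal fatty acid-binding protein gene, at 0.43, the squamous metallothionein gene Mt4 at 0.45 and Ptgr1, a reductase gene for reactive lipid carbonyls, at 0.55, with a median of 1.23. Nearest to Gstm1 were the metallothionein gene Mt2 at 0.51, Rps21 at 0.54 and Rpl35a at 0.56, with a median of 0.99. Nearest to Ftl1 were the actin-linked genes Tagln2 at 0.46 and Tmsb4x at 0.54 and the noncoding RNA gene Gas5 at 0.54, with a median of 0.98. Among the members themselves, Gstm1 and Prdx1 were closest at 0.62, and Adh7 and Ftl1 were farthest apart at 1.72. The clusters of a section share the total against which each profile was set, so these are descriptions of 7 regions.

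Related enzymes were read from 8 lists of 145 genes in all, of which 34 were in the WT table and 12 in the H3K36M table. In WT cluster 2, 6 of 34 were at least 2-fold higher and 2 lower, beside 6.71% and 21% of all listed genes. Of the 6, Gstm1 and Ftl1 are members, and the others were Gclc at 3.11 (2.49 to 3.92) and Gclm at 2.81 (2.28 to 3.49), the 2 subunits of the enzyme that starts glutathione synthesis, the catalase gene Cat at 2.78 (2.28 to 3.40) and the pentose phosphate gene Tkt at 2.49 (1.93 to 3.25). Gclc, Gclm, Cat and Tkt reached the listing limit in cluster 2 alone, so the listing rule required them to be highest there. The lower pair was Glrx, a glutaredoxin gene, at 0.336 (0.308 to 0.365), and Aldh1a3, a retinaldehyde dehydrogenase gene, at 0.352 (0.289 to 0.426). Aldh1a3 was listed through cluster 1 alone. Of the 18 NRF2-linked genes in the WT table, 16 had a ratio above 1 in cluster 2, beside 56.6% of all 865 listed genes, and 5 were at least 2-fold higher, while Nfe2l2 itself was at 1.18 (0.995 to 1.41). Gstm1, Prdx1 and Ftl1 among the 18 are members, and Gclc, also among them, was listed through cluster 2 alone. Of the 30 list genes in the WT table that are not members, 22 had a ratio above 1 in cluster 2. Their median log2 ratio there was 0.34, beside 0.17 over all listed genes, and the listing bears on this too. Cluster 1 of the WT section had 2 list genes at least 2-fold higher and 6 lower, beside 20.7% and 8.21% of all listed genes. Cluster 3 had 0 higher and 9 lower, beside 4.86% in either direction.

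**Figure D4:**
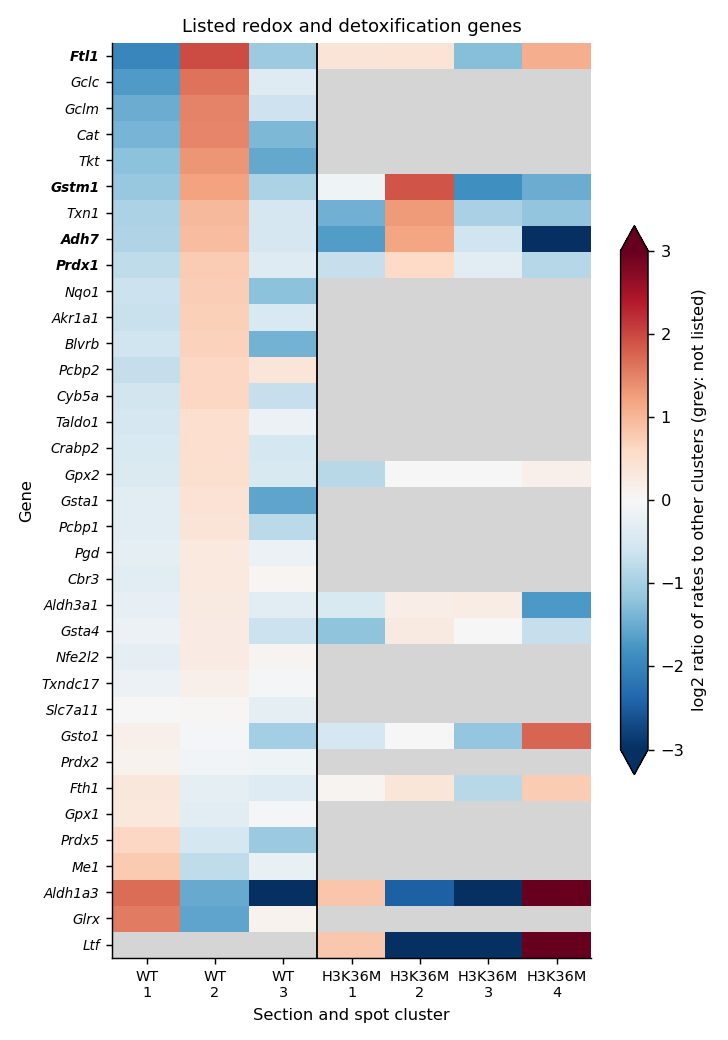
Log2 ratio of rates to the other clusters of the section for the 35 list genes found in either table, ordered by WT cluster 2, with the 4 members in bold and grey where a gene was not listed. The colour scale ends at -3 and 3; Gclc, Gclm, Cat and Tkt lie between Ftl1 and Gstm1 in WT cluster 2, and Ltf, Aldh1a3 and Gsto1 are high in H3K36M cluster 4.

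In H3K36M cluster 4 some relatives of the members went the opposite way and others the same way. Gsto1, an omega-class glutathione transferase gene, reached 61.5 UMIs per 10000 (55.0 to 68.5) there, with a ratio of 3.36 (2.95 to 3.81) to the rest, while Gstm1 was at 0.354. For every 100 UMIs of Gsto1 there were 3.07 of Gstm1 (1.46 to 5.71) in cluster 4, against 34.0 (29.1 to 39.5) in cluster 2. Gsta4, an alpha-class transferase gene, was lower in cluster 4 like Gstm1, at 0.619 (0.454 to 0.826). Among alcohol and aldehyde dehydrogenases, Aldh1a3 was 27.3 times higher (14.9 to 53.1) in cluster 4, with 42 UMIs there and 15 elsewhere. Adh7, which acts upstream in the same retinoid pathway, was at 0.119, and Aldh3a1, an aldehyde dehydrogenase gene of squamous surfaces, at 0.302 (0.180 to 0.475). Of the 12 listed genes, 4 were at least 2-fold higher in cluster 4 and 4 lower, beside 15.4% and 27.5% of all listed genes. The higher 4 were Ltf at 36.1 (26.9 to 49.3), the gene of the iron-binding secreted protein lactoferrin, Aldh1a3, Gsto1 and Ftl1. Aldh1a3 reached the listing limit in cluster 4 alone, so the listing rule required it to be highest there. Ltf and Ftl1 reached that limit in clusters 1 and 4 alone, so they had to be highest in either of those.

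Of the 7 NRF2-linked genes in the H3K36M table, 1 was at least 2-fold higher and 3 lower in cluster 4, while all 7 had a ratio above 1 in cluster 2, beside 53.7% of all 298 listed genes. The 2 of them at least 2-fold higher in cluster 2, Gstm1 and Txn1, were listed through that cluster alone, and Gstm1, Prdx1 and Ftl1 among the 7 are members. Of the 8 list genes in the H3K36M table that are not members, 5 had a ratio above 1 in cluster 2. Their median log2 ratio there was 0.11, beside 0.10 over all listed genes. The remaining H3K36M clusters held fewer large differences among the 12 genes. Cluster 2 had 3 at least 2-fold higher, Gstm1, Adh7 and the thioredoxin gene Txn1 at 2.42 (1.95 to 3.02), all of which the listing rule required to be highest there, and 2 lower, Ltf and Aldh1a3, beside 8.39% and 17.8% of all listed genes. Cluster 3 had 0 higher and 5 lower, beside 14.4% and 13.1%, and Gstm1 and Ftl1 were among the 5, at 0.280 (0.192 to 0.398) and 0.410 (0.303 to 0.546). Cluster 1 had 0 higher and 3 lower, beside 9.4% and 23.8%. Gpx2, a glutathione peroxidase gene of epithelia, was level across clusters 2 to 4, with rates of 12.3, 12.3 and 13.4. Txn1, whose product restores peroxiredoxins, had a ratio of 1.96 (1.84 to 2.10) in WT cluster 2, where Prdx1 was at 1.71 (1.58 to 1.85). For every 100 UMIs of Txn1 there were 66.7 of Prdx1 (63.1 to 70.4) in WT cluster 2. In H3K36M cluster 2 there were 124 (107 to 143). Of the other genes named by rule, Gsta1, Nqo1, Akr1a1, Cyb5a, Cbr3, Crabp2, Blvrb and Txndc17 had ratios between 1.12 and 1.67 in WT cluster 2. Prdx5 was at 0.695 (0.603 to 0.800) there. Gsta1, Nqo1, Akr1a1, Cyb5a and Blvrb reached the listing limit in WT cluster 2 alone, so the listing rule required them to be highest there.

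The light and heavy ferritin chains did not move together in the WT section. WT clusters 1 to 3 had Fth1 rates of 14.5 (13.7 to 15.3), 11.6 (11.1 to 12.2) and 9.76 (7.62 to 12.3), so it was highest in cluster 1, where Ftl1 was low. For every 100 UMIs of Fth1 WT clusters 1 to 3 had 18.6 of Ftl1 (16.1 to 21.4), 92.9 (86.4 to 99.8) and 36.6 (22.4 to 58.1). In the H3K36M section the count of Ftl1 per 100 of Fth1 was 59.1 (27.3 to 123), 48.9 (41.1 to 58.0), 37.4 (27.2 to 50.9) and 58.8 (42.0 to 81.7) in clusters 1 to 4. Fth1 was at 19.2 (15.7 to 23.3) in cluster 4, a ratio of 1.69 (1.35 to 2.09) to the other clusters, so both chains were high there. The intervals of the ratio overlapped between cluster 4 and each other H3K36M cluster, whereas WT clusters 1 and 2 were far apart. Ftl1 has a near copy, Ftl1-ps1, which holds 45.8% of the 50-base words in the last 300 bases of its transcript and 73.4% over the whole transcript. Reads shared with it could have been set aside in counting, so the level of Ftl1 is uncertain, and Ftl1-ps1 itself was not listed. No word of the last 300 bases of Gstm1 was found in its 6 protein-coding Gstm neighbours.

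**Figure D5:**
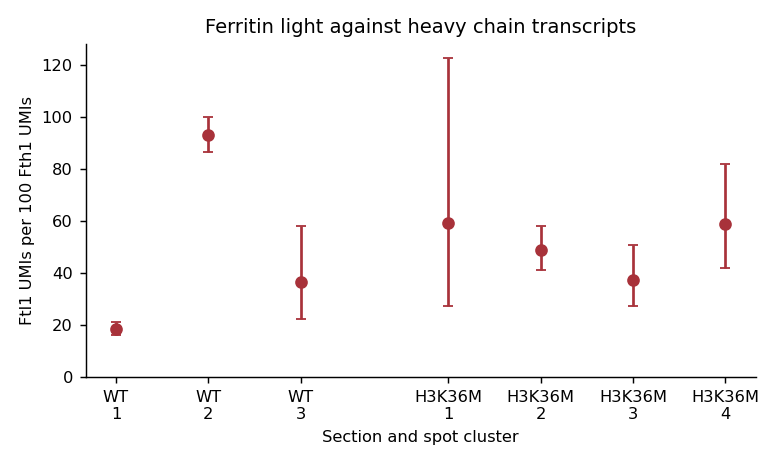
UMIs of Ftl1 per 100 UMIs of Fth1 in each cluster, with exact 95% intervals for the ratio of the counts. The ratio runs from 18.6 to 92.9 across the WT clusters and from 37.4 to 59.1 across the H3K36M clusters.

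Over whole sections none of the 4 genes differed by 2-fold between genotypes, and the directions depended on the scaling. The rates in the WT and H3K36M sections were 5.78 (5.47 to 6.10) and 5.01 (4.45 to 5.63) for Gstm1, 6.6 (6.27 to 6.94) and 7.27 (6.59 to 8.0) for Adh7, 13.5 (13.0 to 14.0) and 11.1 (10.2 to 12) for Prdx1, and 7.53 (7.18 to 7.89) and 5.83 (5.22 to 6.50) for Ftl1. The ratios of H3K36M to WT were 0.867 (0.761 to 0.986), 1.10 (0.986 to 1.23), 0.823 (0.755 to 0.897) and 0.775 (0.687 to 0.872). None passed 2-fold in either direction, where 7.04% of the 284 shared genes were at least 2-fold higher and 8.45% at least 2-fold lower in the H3K36M section. The tables had been normalised separately. With the median UMI counts per spot of the metrics table, 4899 and 763.5, Gstm1, Prdx1 and Ftl1 turned, to log2 ratios of 0.61, 0.54 and 0.45. Those medians did not make all cluster totals whole, and they move every gene by the same amount. No other scaling turned Gstm1 or Prdx1, while an unweighted mean over clusters turned Ftl1 to 0.32. Adh7 went from 0.14 to 0.96 with the metrics medians, and to -0.30 as an unweighted mean over clusters. Effects of depth, of the tissue sampled and of genotype cannot be told apart here.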

How the data were processed

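Per the submitters' processing notes, reads were processed with Space Ranger on GRCm38 (mm10). For the software version, annotation and clustering settings, nothing is stated in the labels. The authors deposited 1 metrics table (counts of spots, reads and genes, signal per spot, and quality measures as a fraction) and 1 cluster table per section. Per the file headers, each cluster table holds, by gene and cluster, an average (a signal), a p-value and a log2 fold change. In every cluster the averages were whole multiples of a step (100% within 0.01), as for UMI counts divided by summed size factors, and the deposited log2 fold changes were rebuilt exactly with 1 added to the counts and size factors of each side. UMI counts follow from this. Cluster totals rest on medians of 5027 (WT) and 1380.5 (H3K36M) UMIs per spot, the smallest multiples of 0.5 that made all totals whole. The metrics table gives 4899 and 763.5, which did not make all totals whole, and the reason for the difference was not tested. Tissue covered 364 and 252 spots. Ratios within a section do not depend on these medians.

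Rates have exact Poisson intervals and ratios exact conditional intervals at 95%, for counting error only. The calculation was tested on simulated data. Clusters were drawn by the authors from the same counts, which the intervals do not allow for. Gene members and lists were chosen with earlier results of these data known. Named genes were the members, up to 4 per list by largest absolute log2 ratio with at least 20 UMIs in a section, and 3 per member by likeness among genes with at least 50 UMIs per section. Tkt, Nfe2l2 and the pairs of genes set against each other were chosen after their values were seen. Of 879 identifiers, all matched GENCODE. Python 3.11 with numpy, pandas, scipy and matplotlib was used.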

Additional observations from a re-analysis of the deposited data

How the results depend on the processing

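No paired analysis was possible because each genotype had 1 section. For the same reason no replicate was left out. Of the 28 log2 ratios of the 4 genes to the other clusters, 28 kept their sign without mitochondrially encoded genes, 28 in the authors' deposited table, 27 over genes listed in both tables, 24 against an unweighted mean of the other clusters and 23 over ribosomal protein genes.

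Over ribosomal protein genes the log2 ratios of Gstm1 were 0.38 in WT cluster 2 and 1.35 in H3K36M cluster 2, and those of Adh7 0.10 and 0.65. Prdx1 went to 0.061 in H3K36M cluster 2 and turned in WT cluster 2 (-0.045), WT cluster 1 (0.079) and H3K36M cluster 3 (0.057). Ftl1 was 1.15 in WT cluster 2 and 1.64 in H3K36M cluster 4 (1.68 over genes listed in both tables), and turned in H3K36M cluster 2 (-0.12). Gstm1 in H3K36M cluster 1, at -0.12 over all UMIs and with 8 UMIs, turned over ribosomal protein genes (0.19), over genes listed in both tables (0.32) and against the unweighted mean (0.30). Against the unweighted mean, H3K36M cluster 2 had 1.44 for Gstm1 and 1.76 for Adh7. Signs also turned against that mean for Adh7 (0.31) and Prdx1 (0.10) in H3K36M cluster 3 and for Ftl1 in H3K36M cluster 2 (-0.14). The cause was not tested.

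Between sections, the log2 ratio of H3K36M to WT over genes listed in both tables was -0.0018 for Gstm1, 0.34 for Adh7, -0.077 for Prdx1 and -0.16 for Ftl1. With the medians from the metrics table, which did not make all cluster totals whole, it was 0.61, 0.96, 0.54 and 0.45 in the same order. As an unweighted mean over clusters it was -0.30 for Adh7, -0.42 for Prdx1 and 0.32 for Ftl1.

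A threshold of 1.5-fold put 4 list genes higher and 13 lower in WT cluster 1, 14 higher in WT cluster 2, 14 lower in WT cluster 3, 2 higher and 5 lower in H3K36M cluster 1 and 8 lower in H3K36M cluster 3. By the authors' deposited p-values under 0.05, with spots as the units, it was 6 higher and 19 lower in WT cluster 1, 21 higher and 6 lower in WT cluster 2, 2 lower in WT cluster 3, 0 lower in H3K36M cluster 1 and 8 lower in H3K36M cluster 3. A minimum of 50 UMIs moved no count by over 1.5 times. Depth limits H3K36M cluster 1 most, where the 4 genes had 37 UMIs in all.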
